A study of Mus musculus with 2 samples.

Results

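The interleukin 1 family and its receptors were read in mouse mammary gland 1 day after forced weaning (day 1 of involution) and at weaning (day 0). The set was defined by gene name and holds 9 genes: the cytokines Il1a, Il1b, Il18 and Il33, the receptor antagonist Il1rn, the receptors Il1r1, Il1rl1 and Il1r2, and the accessory chain Il1rap. The platform annotation gave a probe set to 8 of them, out of 18193 named genes on the array. No probe set used here carried the name of Il1rl1, the receptor of interleukin 33, so its level was not analysed. The 8 genes had 15 probe sets, and every one of them is given below.

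The day 1 sample was pooled RNA of mammary glands from 5 CD1 females whose pups had been removed 1 day earlier. The day 0 sample was pooled RNA of 5 CD1 females killed at the time the pups were removed. All were females of this outbred stock bought at 6 weeks of age, mated to CD1 males, with litters set to 6 pups and weaning forced at day 10 of lactation. The labels do not state the age at which the mice were killed. Each pool went on 1 Affymetrix Mouse Genome 430 2.0 array, so no difference below has a replicate check and no test was possible. Pools of whole glands hold many cell types, and fewer cells of a type cannot be told apart from less RNA per cell.

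Interleukin 1 alpha and beta are early inflammatory cytokines that bind the receptor encoded by Il1r1, which then recruits the accessory chain of Il1rap and the adaptor Myd88 to activate NF-kappaB and MAP kinases. The family restrains itself: the antagonist of Il1rn occupies the receptor without signalling, and the type 2 receptor of Il1r2 binds the ligand as a decoy. Interleukins 1 beta and 18 are made as inactive precursors that caspase 1 cuts within inflammasomes, while interleukins 1 alpha and 33 are held in the nucleus of many epithelial and stromal cells and released on damage. In the mammary gland, the first days of involution are known for acute phase and NF-kappaB activity.

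The 15 probe sets of the family had signals between 1.8 and 456.3. The values are MAS 5 signals, probe set intensities on a linear scale. A floor of 77.7, which is the median signal over both arrays, replaced lower values before a log2 ratio of day 1 over day 0 was taken. A gene was called measured if either array exceeded that floor. Where 1 of the arrays did not, the ratio is only a bound, given with "at least". The floor is a chosen value and not a detection limit, and detection calls were not used here. The floor was exceeded by 6 of the 15 probe sets on both days, by 2 on day 0 only, by 0 on day 1 only and by 7 on neither day. Over all probe sets, 44.5% exceeded it on day 1 and 55.4% on day 0, so these counts do not set the family apart.

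Over the arrays as a whole, signals had a median of 60.1 on day 1 and 94.2 on day 0. On day 1 44.5% of probe sets exceeded the floor, and on day 0 55.4%. The 18 hybridisation control probe sets, bacterial and bacteriophage transcripts that the usual protocol adds in equal amount, had a median log2 ratio of -1.24. The ratio of 3' to 5' signal of beta-actin was 1.51 on day 1 and 2.5 on day 0, and that of Gapdh was 1.48 on day 1 and 1.52 on day 0. All 6 secretory cell markers were at least 2-fold lower on day 1, with a median log2 ratio of -1.26. That median was -0.62 after median centring, -0.84 with loess and -0.86 after ribosomal protein scaling. It was -0.036 after quantile normalization and -0.029 under hybridisation control scaling. Of the 9 luminal epithelial markers, 7 were at least 2-fold higher and 1 lower, with a median of 2.89 that lay between 2.77 and 4.13 in the alternatives run. The part of these shifts in the results below was not tested. Of 13239 measured genes, 10.4% were called higher by at least 2-fold on day 1 and 13.3% were called lower, so the higher ones made up 43.8% of the calls. That share was 81.7% after median centring, 70.2% after scaling on ribosomal protein genes and 94.6% after scaling on the hybridisation controls. The median log2 ratio over measured genes, -0.12 as deposited, was raised by 0.58, 0.36 and 1.12 in these scalings and by 0.10 with loess. Ratios below are therefore best read against that median.

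**Figure D1:**
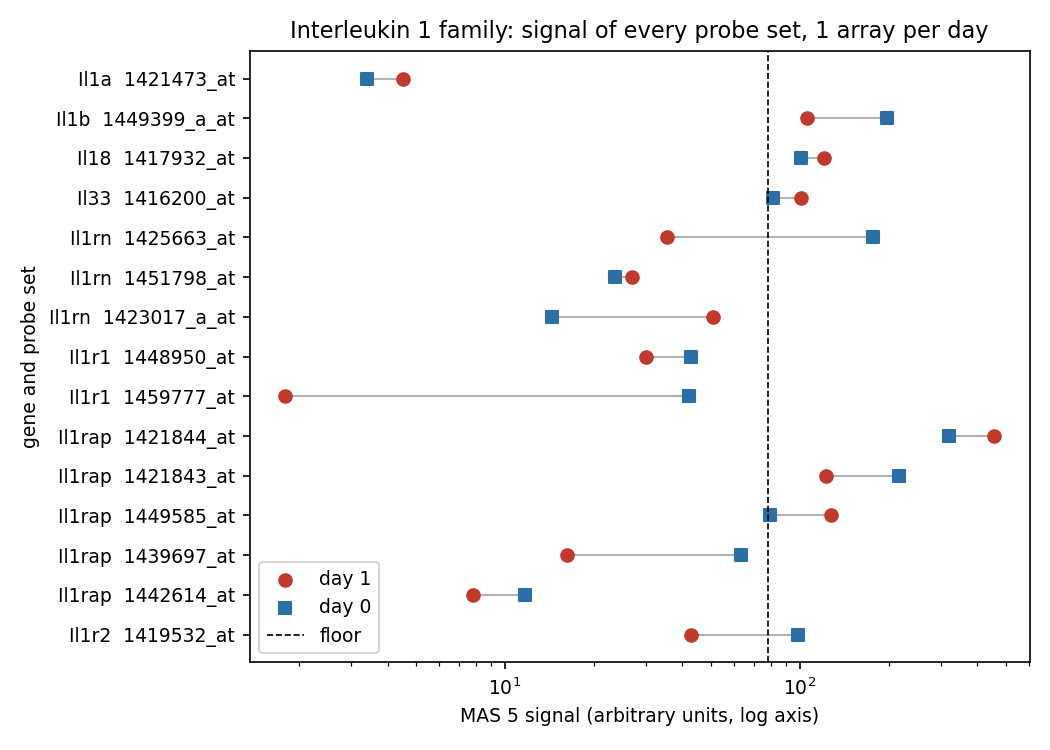
MAS 5 signal (log axis) of each of the 15 probe sets of the 8 genes, with day 1 as circles and day 0 as squares, 1 array per day, and the floor of 77.7 as a dashed line. Il1rn probe set 1425663_at and Il1r2 lie above the floor on day 0 and below it on day 1, and no probe set does the reverse.

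Upstream sequence is shown for the 3 measured members whose signal was lower on day 1, to give the regions from which they are transcribed. Sequences are from RefSeq on GRCm38.p6 and run 5' to 3' over the 250 bases before an annotated start. All 9 members matched, with 14 windows, some genes having several starts. Capitals mark the motif found.
Il1b, chr2:129371140-129371389, minus strand: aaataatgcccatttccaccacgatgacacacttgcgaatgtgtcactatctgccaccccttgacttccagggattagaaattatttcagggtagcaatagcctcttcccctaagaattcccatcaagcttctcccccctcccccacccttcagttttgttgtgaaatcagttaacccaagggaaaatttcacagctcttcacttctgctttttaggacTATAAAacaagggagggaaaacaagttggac
Il1rn, chr2:24336610-24336859, plus strand: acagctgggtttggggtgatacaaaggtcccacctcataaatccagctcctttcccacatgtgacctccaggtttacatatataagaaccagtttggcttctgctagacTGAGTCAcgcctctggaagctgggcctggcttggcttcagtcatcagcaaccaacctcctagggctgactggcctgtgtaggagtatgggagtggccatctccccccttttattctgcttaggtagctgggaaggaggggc
Il1r2, chr1:40085843-40086092, plus strand: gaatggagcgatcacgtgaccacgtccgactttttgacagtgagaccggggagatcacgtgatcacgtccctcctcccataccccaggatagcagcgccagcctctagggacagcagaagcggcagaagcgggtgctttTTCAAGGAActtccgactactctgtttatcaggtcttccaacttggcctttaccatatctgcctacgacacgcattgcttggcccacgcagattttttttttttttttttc
Both strands were searched for TATAAA, for TGACTCA (the AP-1 site, whose other strand reads TGAGTCA), for TTCNNNGAA (the STAT site, its own reverse complement) and for the NF-kappaB consensus. In the Il1b window the capitals are TATAAA, starting 31 bases before the start. In the Il1rn window they are the AP-1 site TGAGTCA, 141 bases before it, and in the Il1r2 window the STAT site TTCAAGGAA, 111 bases before it. The other 2 windows of Il1rn held none of the 4 motifs. Over the 14 windows, TATAAA was found in 5, the AP-1 site in 2, the STAT site in 1 and the NF-kappaB consensus in 1, the last in a window of Il1r1. Of 32851 mouse windows of the same length, 12.4% held TATAAA, 4.46% the AP-1 site, 7.02% the STAT site and 7.25% the NF-kappaB consensus. A match describes the letters and not a bound site. The array does not tell from which start a transcript came.

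Among the member cytokines, Il1b was the only one with a lower signal on day 1. Its probe set 1449399_a_at read 105.8 on day 1 and 198.2 on day 0, both above the floor. The log2 ratio was -0.91, a 1.87-fold lower signal, which is short of 2-fold and lay at percentile 15.9 of all measured genes. Il18 read 120.8 on day 1 and 101.2 on day 0, a log2 ratio of 0.26. Il33, a nuclear alarmin, read 101.1 on day 1 and 81.4 on day 0, a log2 ratio of 0.31. These 2 ratios lay at percentiles 67.5 and 69.9. Il1a gave signals of 4.5 on day 1 and 3.4 on day 0, far under the floor on both arrays, so no ratio is given for it.

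Il1rn was the only member past 2-fold. Its brightest probe set, 1425663_at, read 35.4 on day 1 and 177.1 on day 0, at least 2.28-fold lower on day 1, with a bound of -1.19 on the log2 scale. The other 2 probe sets of Il1rn did not show this difference, and both were under the floor on both days. Probe set 1423017_a_at read 50.6 on day 1 and 14.4 on day 0, and 1451798_at read 26.9 on day 1 and 23.7 on day 0. The lower value of Il1rn thus rests on 1 of 3 probe sets.

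Of the receptor chains that signal, Il1rap was measured and Il1r1 was not. Il1rap probe set 1421844_at read 456.3 on day 1 and 320.6 on day 0, a log2 ratio of 0.51 at percentile 77.3 of all measured genes. Probe set 1449585_at read 127.2 on day 1 and 79.4 on day 0, a log2 ratio of 0.68. Probe set 1421843_at went the other way, with 122.8 on day 1 and 217.5 on day 0, a log2 ratio of -0.82. The 3 measured probe sets of Il1rap therefore differ in sign, and none reached 2-fold. The remaining 2 were under the floor on both days, 1439697_at with 16.3 on day 1 and 63.2 on day 0 and 1442614_at with 7.8 on day 1 and 11.7 on day 0. Il1r1, the signalling receptor of interleukin 1, read 30 on day 1 and 42.8 on day 0 at probe set 1448950_at. Its second probe set, 1459777_at, read 1.8 on day 1 and 42 on day 0. Both were under the floor throughout, so neither gives a ratio at that floor.

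The decoy receptor Il1r2 read 42.8 on day 1 and 98.3 on day 0 at its single probe set. With day 1 at the floor, its log2 ratio had a bound of -0.34, or at least 1.27-fold lower. The day 0 signal was itself close to the floor, which keeps the bound small. With a lower floor, at the 25th percentile, its log2 ratio was -1.20.

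Of the 6 measured member genes, 0 were higher by 2-fold or more and 1 was lower by that much, against 10.4% and 13.3% of all measured genes. By probe set, 0 of 8 measured were called higher and 1 was called lower, against 9.08% and 13.1% of all 27062 measured probe sets. The 6 genes split into 3 with a ratio above 0 and 3 below 0. Their median log2 ratio was -0.04 against -0.12 for all measured genes, Il1rn and Il1r2 being taken at their bounds. The bound of Il1r2 enters that median, so the floor partly sets it. With the lower floor Il1r1 also counted as measured. The median of that larger set was -0.51, the ratio of Il1r1 itself, against -0.21 for all measured genes. The quartiles of all measured genes were -0.64 and 0.44. Il1b and the bound of Il1rn lay below the lower quartile, Il1rap just above the upper one, and Il18 and Il33 between them. Il1r2 has no place among them, since its ratio is only known to be -0.34 or lower. For scale, log2 ratios of different probe sets of the same gene, taken over the 3943 genes with several of them measured on both arrays, spread with a pooled SD of 0.56. That figure describes probe sets and not mice.

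**Figure D2:**
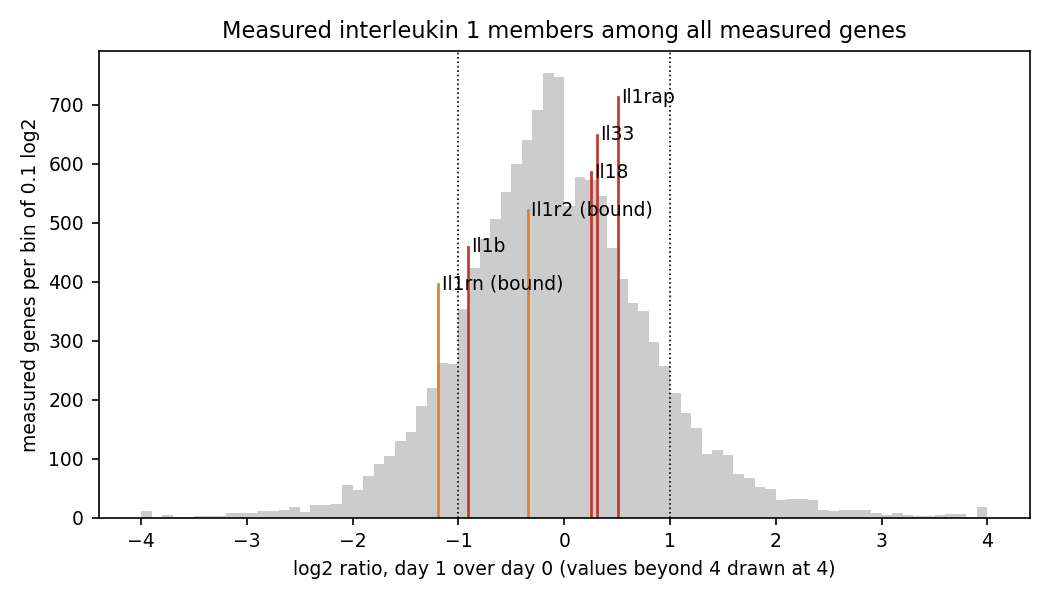
Histogram of the log2 ratio of day 1 over day 0 for all 13239 measured genes, in bins of 0.1 log2, with the 6 measured members as vertical lines whose height has no meaning and dotted lines at 2-fold in either direction. Only Il1rn, a bound at -1.19, lies past a dotted line.

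The scaling of the arrays moved these values. Il18, Il33 and Il1rap had ratios above 0 under every alternative that measured them. Under scaling on the hybridisation controls their log2 ratios were 1.49, 1.55 and 1.74, and that of Il1b was 0.33, so the direction of Il1b depends on the scaling. Il1rap was also past 2-fold after median centring, with 1.16. The bound of Il1rn ran from -1.19 to -1.07 over the 5 scalings. Its day 1 signal is under the floor, so the bound hardly follows a scaling and is no sign of stability. Il1rn was under 2-fold, with -0.40, when all 3 of its probe sets were averaged, and not measured with a floor at the 75th percentile.

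**Figure D3:**
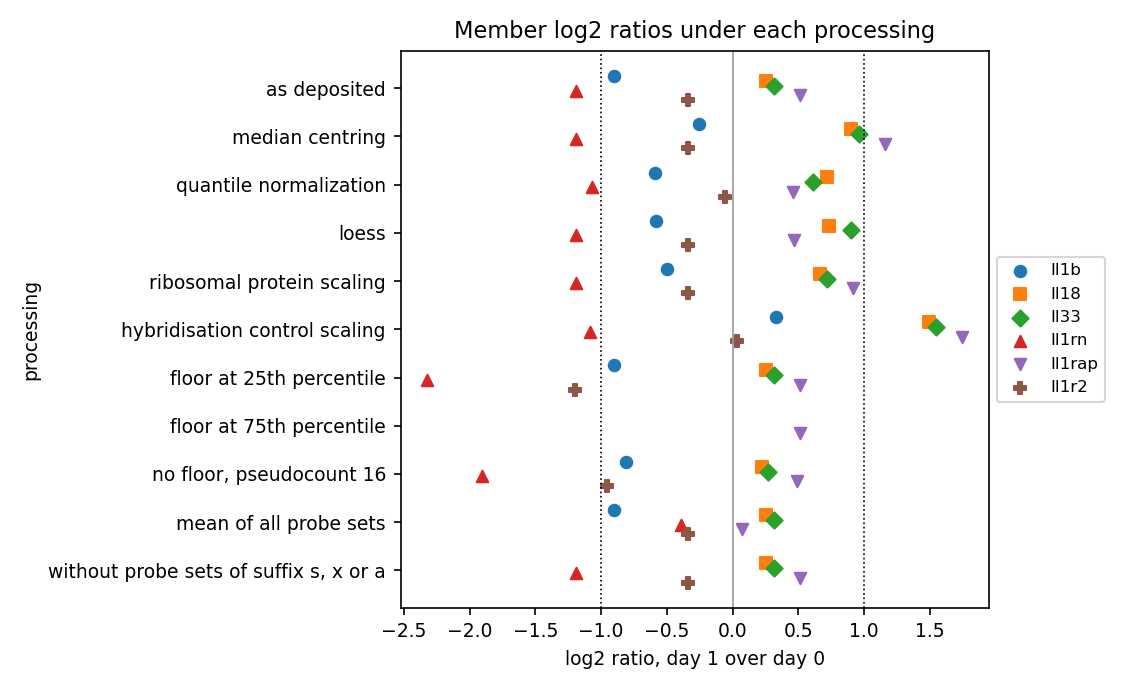
Log2 ratio of day 1 over day 0 of the 6 measured members as deposited and under 10 other processings (rows), with dotted lines at 2-fold. Il18, Il33 and Il1rap stay right of 0, Il1rn stays left of it, and Il1b and Il1r2 pass 0 only under hybridisation control scaling.

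Most of the further ligand and receptor genes had lower signals on day 1. Of 12 further ligands, receptors and decoys, 11 had a probe set and 8 were measured. Of these 8, 0 were called higher and 2 lower at the 2-fold threshold, against 10.4% and 13.3% of all measured genes. Ratios were below 0 for 6 of the 8, and their median log2 ratio was -0.76 against -0.12 for all measured genes. Il18rap, the accessory chain of the interleukin 18 receptor, read 54.8 on day 1 and 288.3 on day 0, at least 3.71-fold lower. Its other probe set was under the floor on both days, with 6.8 on day 1 and 60.8 on day 0. With its probe sets averaged the log2 ratio of Il18rap was -0.95, and with a floor at the 75th percentile it was -0.21. Il18bp, a secreted protein that neutralises interleukin 18, read 99.8 on day 1 and 223.9 on day 0, 2.24-fold lower. Il18bp was under 2-fold in all 5 scalings, with log2 ratios from -0.87 to 0.069, so its call holds only with the scaling as deposited. Sigirr, a receptor that dampens signalling of the family, read 380.5 on day 1 and 760.8 on day 0. That difference was marginally under 2-fold and was not called.

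Il18r1, the ligand-binding chain of the interleukin 18 receptor, read 122.4 on day 1 and 114.3 on day 0, so it did not share the lower signal of Il18rap. Il1rl2, the receptor of the interleukin 36 cytokines, read 258.9 on day 1 and 241.8 on day 0. The interleukin 36 genes all had lower signals on day 1. Il36g read 165.7 on day 1 and 251.8 on day 0, a log2 ratio of -0.60. Il36b read 31.3 on day 1 and 145.9 on day 0, and Il36a 49.8 on day 1 and 108.6 on day 0, with bounds of -0.91 and -0.48. With the lower floor the log2 ratios were -2.22 for Il36b and -1.12 for Il36a. Under hybridisation control scaling Il36a was at 0.11 and Il36g at 0.63, while Il36b stayed at its bound of -0.91. After median centring Il36g was at 0.045. These 3 carry the older symbols Il1f9, Il1f8 and Il1f6 on the array and were matched through RefSeq synonyms. The cytokine gene Il1f10 read 34.2 on day 1 and 62.4 on day 0, and Il1rapl1 and Il1rapl2, which act mainly in the brain, were also under the floor on both days. In RefSeq, Il1r2, Il1r1, Il1rl2, Il1rl1, Il18r1 and Il18rap follow each other on chromosome 1 without another protein-coding gene between them. Il18rap, at 1 of its 2 probe sets, and its neighbour Il18r1 thus had different ratios within 1 cluster.

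Signalling genes downstream of the receptor were split. Of 18 measured adaptors and kinases of 20 listed, 2 were called higher and 1 was called lower. Over all measured genes, 10.4% were called higher and 13.3% lower. The median log2 ratio of the 18 was 0.14, against -0.12 for all measured genes. Mapkapk2, a kinase that stabilises cytokine transcripts downstream of p38, read 666 on day 1 and 227 on day 0, 2.93-fold higher. Myd88, the adaptor shared by interleukin 1 and Toll-like receptors, read 1564.2 on day 1 and 602.3 on day 0, 2.60-fold higher. Irak2, a kinase that acts next to that adaptor, read 136.2 on day 1 and 327.2 on day 0, 2.40-fold lower. Irak2 was not past 2-fold after median centring (-0.62), ribosomal protein scaling (-0.86) or hybridisation control scaling (-0.029), nor with a higher floor at the 75th percentile (-0.39). Irak3, an inhibitor of the same complex, read 142.9 on day 1 and 3.8 on day 0. With day 0 at the floor its bound was 0.88 on the log2 scale, and with the lower floor it was 2.68, so its distance from 2-fold is set by the floor. Tollip, another inhibitor, had log2 ratios of 0.93 and 0.19 at its 2 probe sets. Tab2, an adaptor of the Tak1 kinase, had -0.94 and -0.74 at its 2 probe sets.

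Genes that process the precursors went both ways, most of the calls being higher. Of 14 measured of 19 listed, 4 were called higher and 1 was called lower, against 10.4% and 13.3% of all measured genes. The median log2 ratio of the 14 was 0.48, against -0.12 for all measured genes. Casp1, the protease that cuts interleukins 1 beta and 18, read 523.5 on day 1 and 197.2 on day 0, 2.65-fold higher. Casp4, which senses bacterial lipopolysaccharide, read 442.5 on day 1 and 204 on day 0, 2.17-fold higher. The channel gene Panx1 read 268.8 on day 1 and 126.6 on day 0, 2.12-fold higher. With the higher floor the log2 ratios were 1.07 for Casp1, 0.82 for Casp4 and 0.10 for Panx1. Capn1, a calpain, a class of proteases that cut the interleukin 1 alpha precursor, read 245.6 on day 1 and 36.1 on day 0, at least 3.16-fold higher, and its other probe set was at least 2.14-fold higher. Casp8 had a log2 ratio of 0.76. In contrast Pycard, the adaptor that joins inflammasome sensors to caspase 1, read 591.6 on day 1 and 1951.3 on day 0, 3.30-fold lower. Its second measured probe set had 8.8 on day 1 and 123.6 on day 0, a bound of -0.67 on the log2 scale. Under hybridisation control scaling Pycard was at -0.49, and with its probe sets averaged at -0.80. The caspase 1 gene and its adaptor gene thus had ratios of opposite sign. The sensor gene Nlrp3, given beside them after its value was seen, read 112.1 on day 1 and 140.1 on day 0.

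Genes that interleukin 1 is known to induce showed both directions. Of 27 listed, 19 were measured, 4 were called higher and 3 were called lower, against 10.4% and 13.3% of all measured genes. The median log2 ratio of the 19 was -0.13 against -0.12 for all measured genes. Saa3, an acute phase serum amyloid, read 1721.5 on day 1 and 252.9 on day 0, 6.81-fold higher. Cebpd, an acute phase transcription factor, read 6785.9 on day 1 and 2041.7 on day 0, 3.32-fold higher. Its other probe set was under the floor on both days, with 31.5 on day 1 and 65.6 on day 0. Ccl2, a monocyte chemokine, read 248.7 on day 1 and 16.1 on day 0, at least 3.20-fold higher. Icam1, a leukocyte adhesion molecule, read 304.1 on day 1 and 117.2 on day 0, 2.59-fold higher. With the higher floor its log2 ratio was 0.28.

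The 3 response genes called lower were Sod2, Nfkb2 and Nfkbiz. Sod2, the mitochondrial superoxide dismutase, read 1465.7 on day 1 and 3552.5 on day 0, 2.42-fold lower, with another probe set at -0.13 on the log2 scale. Nfkb2, a subunit precursor, was 2.18-fold lower at 122.2 on day 1 and 266.5 on day 0, but its second probe set read 114.2 on day 1 and 30.8 on day 0, the opposite direction. Nfkbiz, an inducible co-regulator named here after its value was seen, was 2.08-fold lower at 394.5 on day 1 and 820.9 on day 0. Nfkbia, the feedback inhibitor, was likewise named after its value was seen. Its brightest probe set had a log2 ratio of -0.91, all 5 probe sets had lower signals on day 1, and 3 of the 5 were at least 2-fold lower. These lower values depended on the scaling. Under hybridisation control scaling the log2 ratios were 0.11 for Nfkb2, 0.18 for Nfkbiz, 0.32 for Nfkbia and -0.042 for Sod2. After median centring they were -0.48 for Nfkb2, -0.41 for Nfkbiz, -0.26 for Nfkbia and -0.63 for Sod2. Sod2 was also under 2-fold after ribosomal protein scaling (-0.87) and with its probe sets averaged (-0.67). Il6, Cxcl2, Cxcl3, Cxcl5, Ccl20, Csf2, Mmp13 and Nos2 were under the floor on both days. The chemokine gene Cxcl1, also named after its value was seen, had higher signals on day 1 at all 3 of its probe sets. Its log2 ratios ran from 0.31 to 1.97, with 0.69 at the brightest probe set.

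**Figure D4:**
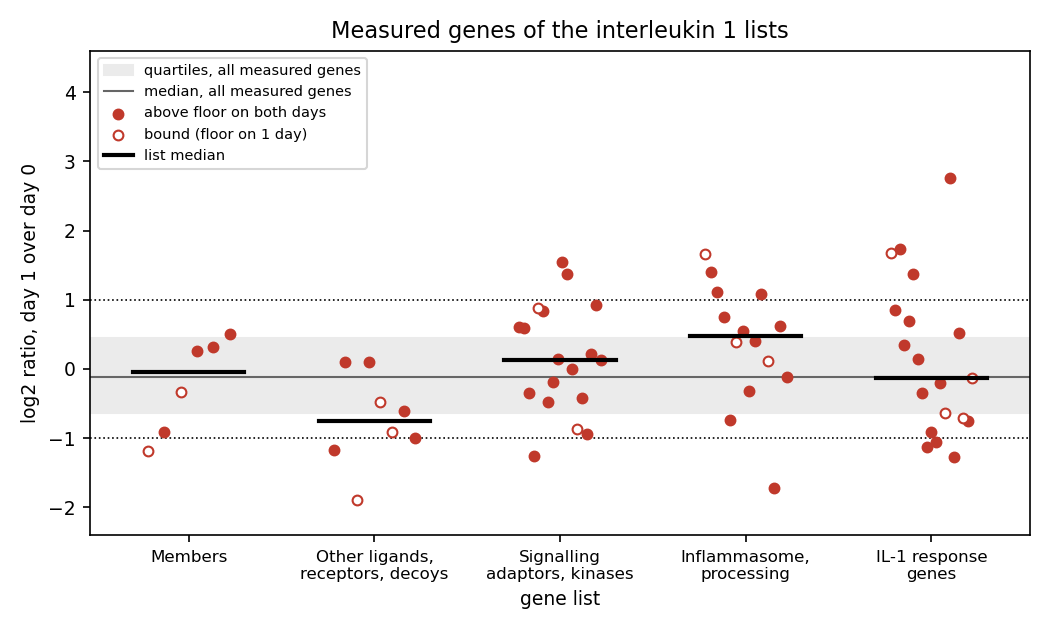
Log2 ratio of day 1 over day 0 for each measured member and each measured gene of 4 related lists, with filled points above the floor on both days, open points as bounds and thick bars as list medians. The grey band and line are the quartiles and median of all measured genes, and the bars sit at -0.04, -0.76, 0.14, 0.48 and -0.13 from left to right.

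Markers of the cells that make or answer interleukin 1 moved unevenly. Of 14 macrophage markers, 13 were measured, 4 were at least 2-fold higher and 1 lower, against 10.4% and 13.3% of all measured genes. The summed signal of the macrophage markers was 40891 on day 1 and 12870 on day 0. Without Cd14, which epithelial cells can also express, the sum was 11881 on day 1 and 9053 on day 0. Of the 13, 11 had ratios above 0, with a median of 0.41. After median centring 9 of 13 were at least 2-fold higher, with a median of 1.06. Under hybridisation control scaling 11 of 14 were, with a median of 1.64. The medians of all measured genes in these scalings were 0.46 and 1.00. Cd68 read 508.2 on day 1 and 173.1 on day 0, Lyz2 3280.3 on day 1 and 1477.1 on day 0, and Mrc1 375.2 on day 1 and 186.8 on day 0. C1qa was the marker called lower, with 736.5 on day 1 and 1729.5 on day 0. Adgre1, which encodes the macrophage antigen F4/80, read 375.2 on day 1 and 665.6 on day 0, and Itgam was under the floor on both days. Of 10 neutrophil markers with a probe set, 5 were under the floor on both days, Cxcr2, Mpo, Camp, Itgam and Mmp8. Of the 5 measured, 1 was called higher and 0 lower, with a median log2 ratio of -0.39. S100a8 read 386 on day 1 and 73.9 on day 0, at least 4.97-fold higher, while Csf3r read 45.5 on day 1 and 151 on day 0. S100a9 read 154.5 on day 1 and 142.7 on day 0, and Ngp 105.1 on day 1 and 187 on day 0. Without Ltf, a milk protein, the neutrophil sum was 911 on day 1 and 798 on day 0. Of 8 mast cell markers, cells that carry the interleukin 33 receptor, 6 were measured and 1 was at least 2-fold higher, Kit, which epithelial progenitors also express. Without it their sum was 563 on day 1 and 775 on day 0. The part of these cells in the Il1b, Il1rn and Il1r2 signals was not tested.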

How the data were processed

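RNA pooled from 5 mice per day was hybridised to 1 Affymetrix Mouse Genome 430 2.0 array per day. Per the labels, the deposited intensity values are signals that the authors made with the Affymetrix Microarray Suite 5.0 algorithms (MAS 5). No target for that scaling is stated in the labels. Such a scaling gives each array 1 factor, so an error in it shifts alike all ratios with both signals above the floor, while a bound moves less or not at all. From these values log2 ratios of day 1 over day 0 were computed here after flooring at 77.7, with python 3.11.15, numpy 2.4.6 and pandas 2.3.3. Probe sets were named by the platform annotation, with symbols updated by gene identifier to RefSeq of GRCm38.p6, which matched 34741 of 34945 probe sets with 1 symbol. The 932 with several symbols and 9160 unnamed ones were left out of gene results. A gene's value is its probe set with the highest mean signal, and a call means at least 2-fold. The number of arrays limits the precision. All probe sets of the members were named, and in each of 4 pathway lists the up to 6 measured genes with the largest absolute ratio, plus every further ligand and receptor. The members and lists were chosen with earlier results of these data known. The script recovered known ratios put into simulated arrays without noise, for genes well above the floor. That checks the calculation only, and not ratios or bounds near the floor. Alternatives were 5 scalings (loess span 0.3) and a lower and a higher floor (25th and 75th percentile). Others were a pseudocount of 16 in place of the floor, averaging over a gene's probe sets, and thresholds of 1.5-fold and 3-fold. A last alternative left out probe sets of suffix s, x or a.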

Additional observations from a re-analysis of the deposited data

How the results depend on the processing

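The count of member genes at least 2-fold higher, 0 as deposited, was 1 after median centring and 3 under hybridisation control scaling. The count at least 2-fold lower, 1 as deposited, was 2 with the lower floor (25th percentile) or a 1.5-fold threshold, and 0 with the higher floor (75th percentile), with the mean of all probe sets or at 3-fold. A higher floor and a stricter threshold leave fewer genes to call by construction. As deposited, 10.4% of all measured genes were called higher and 13.3% lower. The count higher over all genes, 1374 as deposited, was 3853 after median centring and 7244 under hybridisation control scaling. The member median, -0.04 as deposited, was 0.91 under hybridisation control scaling, against 1.00 for all measured genes.

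List medians moved most with the scaling. Under hybridisation control scaling they were 0.11 for the further ligands and receptors, 1.41 for the signalling genes, 1.64 for the processing genes and 1.20 for the response genes. After median centring the last 3 were 0.82, 1.05 and 0.44. The median of all measured genes was 1.00 under hybridisation control scaling and 0.46 after median centring. At the higher floor Il1rap was the only member measured, and the further ligands and receptors were at -0.11. Il18bp (0.069), Nfkbiz (0.18) and Nfkb2 (0.11) turned to above 0 under hybridisation control scaling; the cause was not tested. Over the 12 alternatives, the count at least 2-fold higher ran from 0 to 2 for the further ligands and receptors, 0 to 12 for the signalling genes, 1 to 12 for the processing genes and 2 to 11 for the response genes. The count lower ran from 0 to 5, 0 to 3, 0 to 2 and 0 to 7. Over all genes the counts ran from 510 to 7244 higher and from 414 to 4306 lower, so the list counts moved together with those of all genes.

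Counts over all genes, 1374 higher and 1764 lower, were 3853 and 861 after median centring, 2700 and 1148 after ribosomal protein scaling, 7244 and 414 under hybridisation control scaling, 852 and 606 with the higher floor, 872 and 1115 with the mean of all probe sets, 2699 and 3601 at 1.5-fold and 510 and 573 at 3-fold. The lower count was 4306 with the lower floor and 3051 with no floor.

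Without probe sets of suffix s, x or a, Il1b had no value. No paired analysis was possible because each day has 1 array. Most members lie within a few-fold of the floor, where signal over background limits any ratio.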
